A study of Danio rerio with 9 samples.

Results

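Hyaluronan and cardiac jelly genes were followed here through 3 neighbouring tissues of the zebrafish larval heart region. The set was defined by symbol as has1, has2, vcana, vcanb, hapln1a, hapln1b, hapln3 and cd44a. Of these 8 symbols, 7 matched an identifier among the 32520 genes counted, and 6 of the 7 had enough reads to be tested. No identifier carried the symbol hapln1b. No threshold on measured values entered the choice, but the set was chosen with earlier results of these data known.

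The study compared bulk RNA-seq libraries of proepicardium (4 libraries), heart tube (3 libraries) and dorsal pericardium (2 libraries). The labels list 4 proepicardium libraries, whereas the design text states 3 for that tissue. All groups came from AB strain larvae at 60 hours post fertilisation (60 hpf) of the double reporter genotype epi:eGFP;myl7:mRFP, so none of the groups is free of the reporters. The organs were dissected by hand, at least 10 were pooled per library, and the SMARTer Ultra Low Input kit served to amplify cDNA directly from the lysate. The tissues were not sorted, so each library may hold neighbouring cells. Nothing in the labels says that the pools came from separate clutches, and p-values therefore measure the spread between these pools, which may be technical.

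Cardiac jelly is the gelatinous matrix between the myocardium and the endocardium of the embryonic heart tube, and hyaluronan is its main polysaccharide. Hyaluronan synthases at the plasma membrane build and extrude the chain from the sugar nucleotides UDP-glucuronic acid and UDP-N-acetylglucosamine. The chondroitin sulfate proteoglycan versican binds the chain, link proteins stabilise that complex, and cells hold hyaluronan through receptors such as CD44. In zebrafish, this matrix is known for its part in endocardial cushion and valve formation at the atrioventricular canal.

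Levels are given as CPM, the counts of a gene scaled to a fixed library total, with TMM library factors. They compare 1 gene across libraries and are not corrected for gene length, so levels of different genes are not compared. Differences are log2 fold changes from edgeR's quasi-likelihood test over all 17003 genes with enough reads. A gene was called at a Benjamini-Hochberg adjusted p under 0.05. Gene counts per library totalled 8882853 to 19397355, so that 3 counts, the limit that a count of 0 allows, corresponded to 0.15 to 0.331 CPM. Such limits and the intervals below cover counting error only, since the amplified reads carried no molecular identifiers.

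The libraries carried the marks of their labelled tissues in part. The 8 myocardial marker genes took 4.58% to 5.93% of gene counts in heart tube, against 0.0136% to 0.0615% in proepicardium and 0.00292% to 0.00989% in pericardium. The 6 endocardial and endothelial markers took 0.0381% to 0.0595% in heart tube, at most 0.00918% in proepicardium and at most 0.00693% in pericardium. The 7 epicardial and proepicardial markers summed to 0.00354% to 0.0152% of counts in proepicardium, 0.0151% to 0.0325% in heart tube and 0.00223% to 0.00231% in pericardium. Single markers of that list differed: podxl was called lower in proepicardium than in heart tube, while wt1b and sema3d were called higher. The other 3 of the 6 tested were not called. In pericardium sema3d stood at 2.61 and 3.65 CPM, within its proepicardium range of 1.66 to 9.03 CPM. The marker wt1a had 7, 3, 18 and 5 reads in proepicardium and 0 in every heart tube library. Epidermal markers (11 genes) took 1.32% to 5.32% in proepicardium, 0.0219% to 0.630% in heart tube and 5.98% to 7.38% in pericardium. Proepicardium libraries 3 and 4 stood apart from 1 and 2 in their mitochondrial share, at 21% and 20.8% of gene counts, against 7.96% and 9.70%. Their erythroid marker shares were also higher, at 0.244% and 0.211% against 0.0731% and 0.0486%. Their epidermal marker shares were lower, at 1.32% and 3.19% against 4.86% and 5.32%. Reads of the dsRed reporter row numbered 595 and 332, against 68 and 36, and were 209, 221 and 181 in heart tube. The mCherry reporter row had 0, 0, 1 and 1 reads in proepicardium libraries 1 to 4 and 3938, 4042 and 3059 in heart tube. Because proepicardium libraries 3 and 4 stood apart, the members' comparisons that use the proepicardium are also given without them.

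Of the 6 tested genes, has2, vcana and hapln1a were higher in every heart tube library than in any other library. The gene cd44a was lower in every heart tube library than in any other. For cd44a this rests on 2 reads in heart tube 1 (0.111 CPM) against 2 reads in proepicardium 2 (0.166 CPM). The share of all tested genes that separate this way is not given here. Between proepicardium and heart tube, has2, vcana and hapln3 were lower in proepicardium, and cd44a was higher. That is 3 of 6 genes lower, where 12.7% of all tested genes were called lower, and 1 of 6 higher, where 16.8% were. Between heart tube and pericardium, has2, vcana and hapln1a were higher in heart tube and cd44a was lower. Those counts were 3 of 6 higher, against 11% of all tested genes, and 1 of 6 lower, against 16.1%. Between proepicardium and pericardium none of the 6 genes was called, and edgeR called 0% of all genes there. Of the 17003 tested genes 834 had an unadjusted edgeR p under 0.05 in the main fit, about as many as that threshold gives by chance. That number depended on the setting: it was 1090 with DESeq2, 2405 with limma-voom and 351 with a replicate block. In edgeR it was 1601 without proepicardium 1 and 507 without proepicardium 3. At an adjusted p under 0.05 DESeq2 called 102 genes there. The median log2 fold change of the 6 genes was -2.35 for proepicardium over heart tube, -0.65 for proepicardium over pericardium and 1.53 for heart tube over pericardium. Over all tested genes those medians were 0.17, -0.02 and -0.09. The comparisons share libraries and are not independent of each other.

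**Figure D1:**
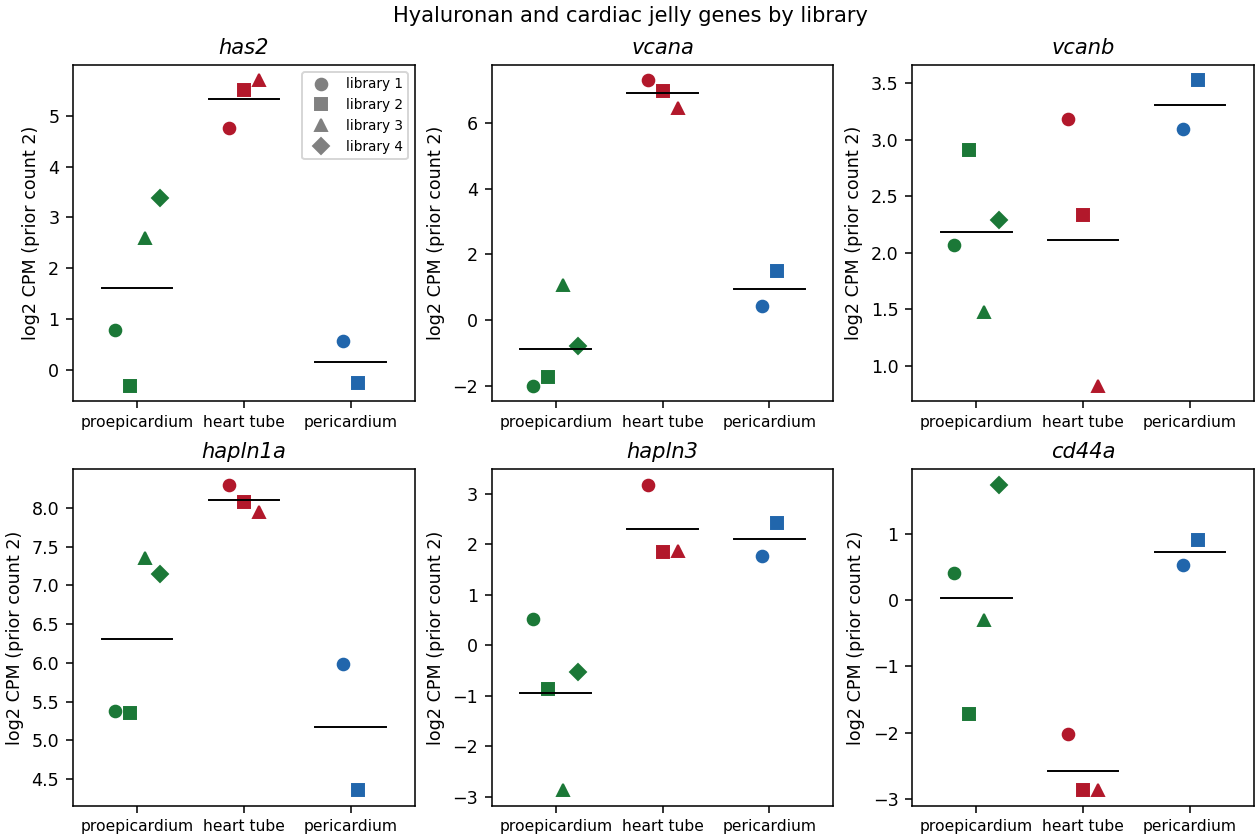
Level of each tested gene in each library, as log2 CPM with a prior count of 2, with points for libraries and a line at the tissue mean (proepicardium n = 4, heart tube n = 3, pericardium n = 2). The heart tube points of has2, vcana and hapln1a lie above every other library, and those of cd44a lie below every other library.

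Of the synthases, has2, which makes most of the hyaluronan of the embryonic heart, was a heart tube transcript in these libraries. The has2 level was 1.58, 0.664, 5.89 and 10.3 CPM in proepicardium libraries 1 to 4, 26.9, 45.4 and 51.6 CPM in heart tube, and 1.35 and 0.695 CPM in pericardium. Every heart tube library exceeded every other library, proepicardium 3 and 4 were above 1 and 2, and the ranges of proepicardium and pericardium overlapped. Proepicardium averaged 4.60 ± 4.41 CPM (SD, n = 4) and heart tube 41.3 ± 12.9 CPM (SD, n = 3). Heart tube was 8.97-fold higher, and the log2 fold change of proepicardium over heart tube was -3.18 ± 0.73 (SE, edgeR adjusted p = 0.00874). Against the pericardium mean of 1.02 ± 0.466 CPM (SD, n = 2), heart tube was 40.3-fold higher, with a log2 fold change of 5.29 ± 1.1 (SE, edgeR adjusted p = 0.00558). Proepicardium over pericardium gave 2.10 ± 0.94 (SE, edgeR adjusted p = 0.971), and 0.13 without proepicardium 3 and 4.

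The has2 difference between proepicardium and heart tube was called in 20 of 20 alternative settings, and without proepicardium libraries 3 and 4 its log2 fold change was -5.15. Without proepicardium 4 alone it was -3.90. The heart tube to pericardium call was lost when either pericardium library was left out, at 6.03 (edgeR adjusted p = 0.0507) without pericardium 1 and 4.98 (edgeR adjusted p = 0.0760) without pericardium 2. Because these are bulk tissues, fewer cells of a type and less RNA per cell cannot be told apart, for has2 or for any gene that follows. The myocardial and endothelial marker shares moved with has2 across the tissues, and their part in the result was not tested. The other synthase of the set, has1, had counts of 0, 0, 1 and 1 in proepicardium, 1, 0 and 0 in heart tube and 0 and 0 in pericardium. At 3 reads in all, has1 was not tested and no fold is given.

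Among the proteoglycan genes, the versican paralogues vcana and vcanb differed in their distribution. The vcana level was 0.113, 0.166, 1.96 and 0.442 CPM in proepicardium libraries 1 to 4, 156, 125 and 86.4 CPM in heart tube, and 1.20 and 2.69 CPM in pericardium. The lowest heart tube library was far above the highest of any other tissue, and proepicardium 3 was the highest of its own group. The proepicardium values of libraries 1, 2 and 4 rest on 2, 2 and 4 reads, and that of library 3 on 32, against 2814, 1804 and 1059 reads in heart tube and 24 and 31 in pericardium.

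Mean vcana was 0.671 ± 0.874 CPM (SD, n = 4) in proepicardium and 122 ± 34.7 CPM (SD, n = 3) in heart tube. Heart tube was thus 182-fold higher, and the log2 fold change of proepicardium over heart tube was -7.44 ± 0.83 (SE, edgeR adjusted p = 0.000142). Over pericardium, which averaged 1.95 ± 1.05 CPM (SD, n = 2), heart tube was 62.7-fold higher, with a log2 fold change of 5.99 ± 1.04 (SE, edgeR adjusted p = 0.00224). Both calls held in all 20 alternative settings. The difference from heart tube widened to -9.12 without proepicardium 3 (edgeR adjusted p = 4.92e-06) and to -9.73 without proepicardium 3 and 4. Heart tube over pericardium was 6.73 without pericardium 2 (edgeR adjusted p = 0.0275). Proepicardium over pericardium gave -1.45 ± 0.83 (SE, edgeR adjusted p = 0.971), with overlapping libraries, and -3.73 without proepicardium 3 and 4 (edgeR adjusted p = 0.279). Myocardial markers summed to 0.0615% of gene counts in proepicardium 3, the highest of that tissue, and to 0.0190%, 0.0212% and 0.0136% in libraries 1, 2 and 4. Whether heart tube cells in that pool contributed to its vcana reads was not tested.

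The vcanb level was 4.06, 7.38, 2.64 and 4.75 CPM in proepicardium, 8.96, 4.91 and 1.63 CPM in heart tube, and 8.43 and 11.4 CPM in pericardium. All 4 proepicardium libraries were below both pericardium libraries, while the heart tube range overlapped both. The log2 fold change was -0.14 ± 0.55 for proepicardium over heart tube (SE, edgeR adjusted p = 0.870), and its sign depended on the setting. It was -1.07 ± 0.60 for proepicardium over pericardium (SE, edgeR adjusted p = 0.971) and -0.93 ± 0.64 for heart tube over pericardium (SE, edgeR adjusted p = 0.327). Only limma-voom called the last of these, at -1.35 (adjusted p = 0.0421). Without proepicardium 3 and 4 the first was 0.14 and the second was -0.79.

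The balance of the versican reads followed from this. Of the reads assigned to vcana or vcanb, vcana took 2.70%, 2.20%, 42.7% and 8.51% in proepicardium, 94.6%, 96.2% and 98.1% in heart tube, and 12.5% and 19.1% in pericardium. The tissue means were 14% ± 19.3 (SD, n = 4), 96.3% ± 1.8 (SD, n = 3) and 15.8% ± 4.69 (SD, n = 2). The heart tube libraries did not overlap with the others. The share in proepicardium rests on 74, 91, 75 and 47 reads, and the exact 95% binomial interval of library 3 ran from 31.3% to 54.6%, above those of libraries 1 and 2, which ended at 9.42% and 7.71%. These shares are not corrected for transcript length and compare libraries, not the abundance of the paralogues within 1 library.

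**Figure D2:**
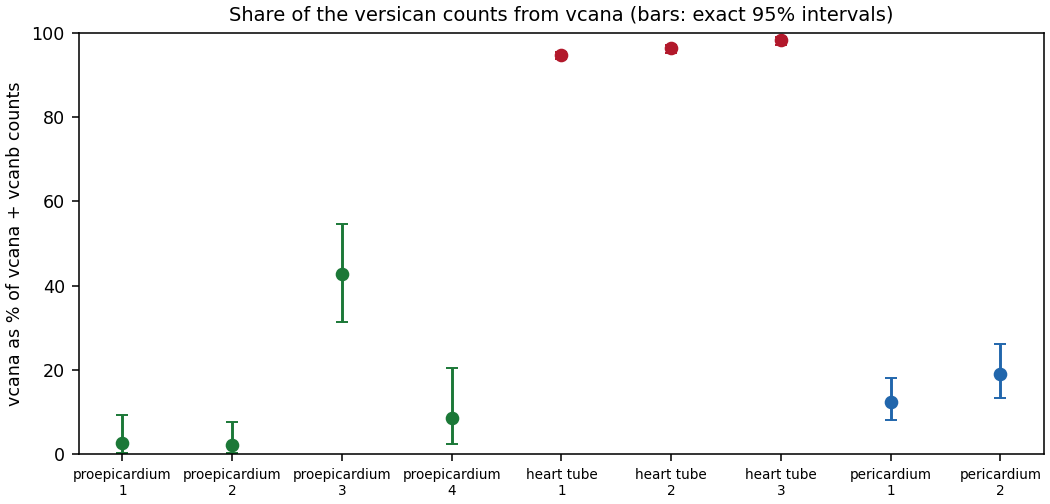
Percentage of versican reads (vcana plus vcanb) assigned to vcana in each library, with exact 95% binomial intervals as bars. Heart tube libraries lie between 94.6% and 98.1%, the proepicardium between 2.20% and 42.7%, and the pericardium at 12.5% and 19.1%.

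Among the link proteins, which lock versican onto hyaluronan, hapln1a was detected in every library. It stood at 41.6, 40.7, 163 and 142 CPM in proepicardium libraries 1 to 4, 315, 269.5 and 247 CPM in heart tube, and 63.1 and 20.3 CPM in pericardium. Heart tube libraries were the highest, proepicardium 3 and 4 were intermediate, and proepicardium 1 and 2 lay between the pericardium values. Means were 96.8 ± 64.8 CPM (SD, n = 4) in proepicardium, 277 ± 34.9 CPM (SD, n = 3) in heart tube and 41.7 ± 30.2 CPM (SD, n = 2) in pericardium. Heart tube was 6.64-fold higher than pericardium, with a log2 fold change of 2.73 ± 0.73 (SE, edgeR adjusted p = 0.0171). That call was lost without pericardium 2 (2.20, edgeR adjusted p = 0.139), and the value was 3.94 without pericardium 1 (edgeR adjusted p = 0.0241).

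Proepicardium over heart tube gave -1.52 ± 0.54 for hapln1a (SE), which missed the threshold at an edgeR adjusted p of 0.0558. No proepicardium library reached the lowest heart tube library, and the share of all tested genes that separate so is not given here. The hapln1a difference passed in 8 of 20 alternative settings, among them DESeq2 (adjusted p = 0.0270). Another was the edgeR fit without proepicardium 3 and 4 (-2.75, adjusted p = 0.00225), a setting added after seeing the data. That fit leaves out the proepicardium libraries highest in hapln1a, so a wider difference was set in advance and adds no support. The mitochondrial and erythroid marker shares of proepicardium 3 and 4 moved with their hapln1a and has2 levels, and their epidermal marker shares moved the other way. The part of these shares in the result was not tested. Proepicardium over pericardium was 1.21 ± 0.65 (SE, edgeR adjusted p = 0.971), and without proepicardium 3 and 4 it was -0.02.

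The link protein gene hapln3 showed another order, with the lowest level in proepicardium. Its level was 1.30, 0.415, 0 and 0.552 CPM in proepicardium, 8.90, 3.46 and 3.51 CPM in heart tube, and 3.26 and 5.22 CPM in pericardium. All 4 proepicardium libraries were below every library of the other tissues, on 23, 5, 0 and 5 reads, and heart tube and pericardium overlapped. Proepicardium averaged 0.566 ± 0.541 CPM (SD, n = 4) and heart tube 5.29 ± 3.13 CPM (SD, n = 3), which was 9.34-fold higher in heart tube and on the log2 scale a difference of -3.19 ± 0.87 (SE, edgeR adjusted p = 0.0168). The call was lost without heart tube 1 (-2.59, edgeR adjusted p = 0.0527), and without proepicardium 1 the difference was -4.11. Without proepicardium 3 and 4 it was -2.58 (edgeR adjusted p = 0.0297).

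Against the pericardium mean of 4.24 ± 1.38 CPM (SD, n = 2), hapln3 in proepicardium gave a log2 fold change of -2.86 ± 0.93 (SE, edgeR adjusted p = 0.920), at an unadjusted p of 0.00947, and -2.25 without proepicardium 3 and 4. In that comparison 2 of the 6 genes, vcanb and hapln3, were lower in every proepicardium library than in every pericardium library, as were 7.75% of all tested genes. None of the 6 was higher throughout, against 7.65% of all tested genes. Heart tube over pericardium was 0.33 ± 0.97 for hapln3 (SE, edgeR adjusted p = 0.849).

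For the unmatched symbol hapln1b no value is given. In the RefSeq gene order (assembly GRCz12tu), vcana and hapln1a are neighbours with 0 protein-coding genes between them, and so are vcanb and hapln1b. The count table lists 2 further identifiers under the name HAPLN1, and neither source used here pairs them with hapln1b. They were picked out after their values were seen. ENSDARG00000068516 stood at 1.47, 2.32, 1.41 and 1.99 CPM in proepicardium, 86.6, 48.0 and 8.07 CPM in heart tube, and 2.71 and 0.695 CPM in pericardium. Its heart tube libraries varied by more than those of hapln1a but stayed above all others, 26.5-fold over proepicardium by their means (log2 fold change of proepicardium over heart tube -4.73 ± 0.72, SE, edgeR adjusted p = 0.000827). The other, ENSDARG00000102395, had 0, 0, 2 and 0 reads in proepicardium, 3, 0 and 13 in heart tube and 0 and 0 in pericardium, and was not tested.

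The receptor gene cd44a was lowest in heart tube, where has2 was highest. Within proepicardium both genes were lowest in library 2 and highest in library 4. They differed between libraries 1 and 3, where has2 was 1.58 and 5.89 CPM and cd44a was 1.18 and 0.675 CPM. The cd44a gene had 21, 2, 11 and 29 reads in proepicardium, 2, 0 and 0 reads in heart tube, and 26 and 20 reads in pericardium. Those counts correspond to 1.18, 0.166, 0.675 and 3.20 CPM in proepicardium, 0.111, 0 and 0 CPM in heart tube, and 1.30 and 1.74 CPM in pericardium. Proepicardium 2, at 2 reads, was close to heart tube 1, and the other proepicardium libraries overlapped with pericardium. Measured against 3 counts per heart tube library, the proepicardium mean of 1.31 ± 1.33 CPM (SD, n = 4) was at least 6.35-fold higher (edgeR adjusted p = 0.0205). Heart tube 1 had 2 reads, so 3 counts served there as a fixed floor and not as the limit of a count of 0. The bound does not cover the spread of the proepicardium mean. Without proepicardium 4, the highest library, that mean was 0.675 CPM and the bound was 3.28-fold. By the same measure, heart tube was at least 7.39-fold lower than the pericardium mean of 1.52 ± 0.307 CPM (SD, n = 2; edgeR adjusted p = 0.0230).

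The cd44a calls rest on few reads and were the least stable of the set. Proepicardium against heart tube was no longer called without heart tube 2 (edgeR adjusted p = 0.0656), heart tube 3 (0.0640), proepicardium 4 (0.0596) or proepicardium 3 and 4 (0.0710). Heart tube against pericardium was lost without heart tube 2 (edgeR adjusted p = 0.0696), heart tube 3 (0.0635), pericardium 1 (0.0767) or pericardium 2 (0.0995). Proepicardium over pericardium was -0.23 ± 1.1 (SE, edgeR adjusted p = 0.987), and -1.12 without proepicardium 3 and 4. Epidermal markers were also low in heart tube, from 0.0219% to 0.630% of gene counts, with the highest share in heart tube 1, which held the 2 cd44a reads. Their part in the cd44a result was not tested.

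**Figure D3:**
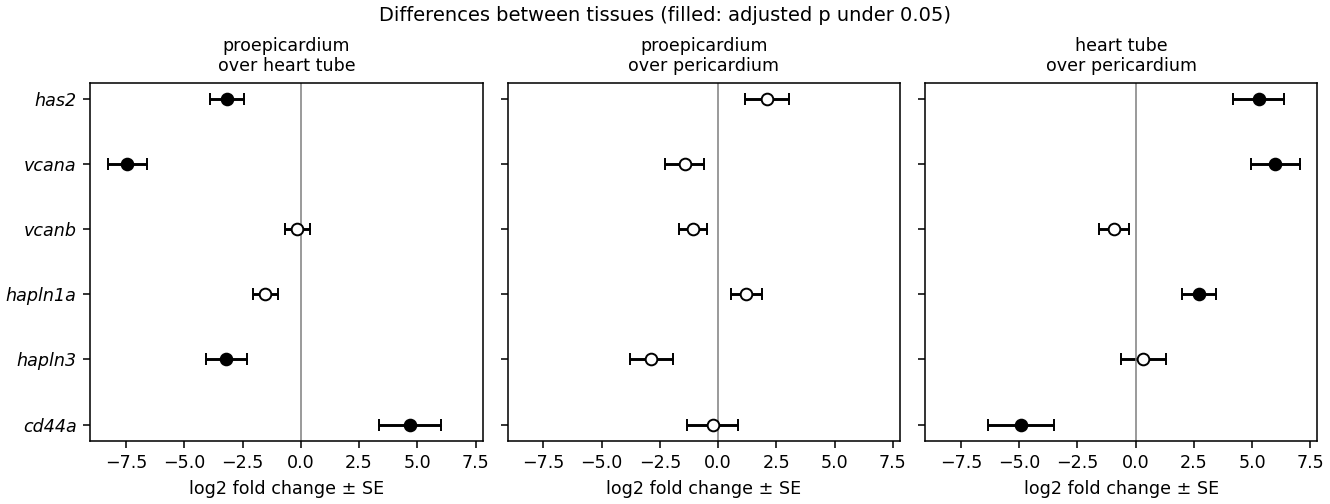
Log2 fold change of the 6 tested genes in the 3 comparisons, first named tissue over the second, with the standard error of the fit as bars and filled points where the edgeR adjusted p was under 0.05. Filled points lie at -7.44 for vcana and -3.18 for has2 in proepicardium over heart tube, and none is filled in proepicardium over pericardium; the fitted values of cd44a against heart tube depend on the prior count and are not bounds.

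The genes that feed hyaluronan synthesis were mostly higher in proepicardium than in heart tube, opposite in direction to has2. Of 10 identifiers tested on the list of synthesis and precursor genes, 7 were higher in proepicardium and 1 was lower, with a median log2 fold change of 1.66, where 16.8% and 12.7% of all tested genes were called. In heart tube over pericardium 1 was higher and 7 were lower, with a median of -2.18, where 11% and 16.1% of all tested genes were called. Between proepicardium and pericardium none was called, where edgeR called 0% of all tested genes. PGM3, an enzyme of the hexosamine pathway that leads to UDP-N-acetylglucosamine, was at 29.0, 19.4, 13.4 and 15.5 CPM in proepicardium, 1.66, 3.46 and 3.10 CPM in heart tube, and 19.5 and 31.4 CPM in pericardium. All heart tube libraries were below all others, with a log2 fold change of 2.82 for proepicardium over heart tube (edgeR adjusted p = 0.000568) and -3.22 for heart tube over pericardium (edgeR adjusted p = 0.00055). GFPT2, an isoform of the entry enzyme of that pathway, averaged 8.89 ± 5.65 CPM in proepicardium (SD, n = 4) and 0.257 ± 0.315 CPM in heart tube (SD, n = 3), which on the log2 scale was 4.98 higher in proepicardium (edgeR adjusted p = 0.00224). GFPT1, its paralogue, averaged 9.83 ± 5.66 CPM in proepicardium (SD, n = 4) and 0.866 ± 0.829 CPM in heart tube (SD, n = 3), at 3.54 (edgeR adjusted p = 0.00801). Single heart tube libraries moved both values, which without heart tube 1 were 6.70 for GFPT2 and 2.94 for GFPT1, without heart tube 2 were 4.35 for GFPT2, and without heart tube 3 were 4.49 for GFPT1.

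UAP1, which makes the nucleotide sugar itself, was lower in heart tube than in pericardium (-2.31, edgeR adjusted p = 0.0044). The genes gnpnat1 and uap1l1, named here after their values were seen, belong to the same pathway. All 6 hexosamine pathway identifiers of the list were called higher in proepicardium than in heart tube, where 16.8% of all tested genes were. All 6 were lower in heart tube than in pericardium, where 16.1% were. This group of 6 was formed with its values known, so its count adds no support to that of the whole list. With limma-voom and with only the compared tissues, 5 of the 6 were called higher in proepicardium. PGM3, GFPT1, GFPT2 and UAP1 kept both calls whichever library was left out. The gnpnat1 call against proepicardium was lost without heart tube 2 or 3 and that against pericardium without pericardium 2. For uap1l1 the first was lost in 6 single-library omissions and the second in 4. UGP2, which makes UDP-glucose for the glucuronic acid branch, is listed under 2 identifiers that moved in opposite directions. ENSDARG00000008200 averaged 112 ± 65.8 CPM in proepicardium and 19.5 ± 6.78 CPM in heart tube (SD, n = 4 and 3), at 2.52 (edgeR adjusted p = 0.00212). ENSDARG00000005578 averaged 0.347 ± 0.248 CPM in proepicardium and 5.56 ± 2.50 CPM in heart tube (SD, n = 4 and 3), at -3.90 (edgeR adjusted p = 0.00188). Neither ugdh nor has3 was called. The enzyme gene ugdh, which makes UDP-glucuronic acid, averaged 19.1 ± 5.30 CPM in proepicardium, 15.3 ± 2.79 CPM in heart tube and 18.0 ± 2.48 CPM in pericardium (SD, n = 4, 3 and 2). Its log2 fold change was 0.32 ± 0.31 for proepicardium over heart tube (SE, edgeR adjusted p = 0.473). Epidermal marker shares moved in the same direction as the hexosamine genes across the tissues, and their part in this result was not tested.

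**Figure D4:**
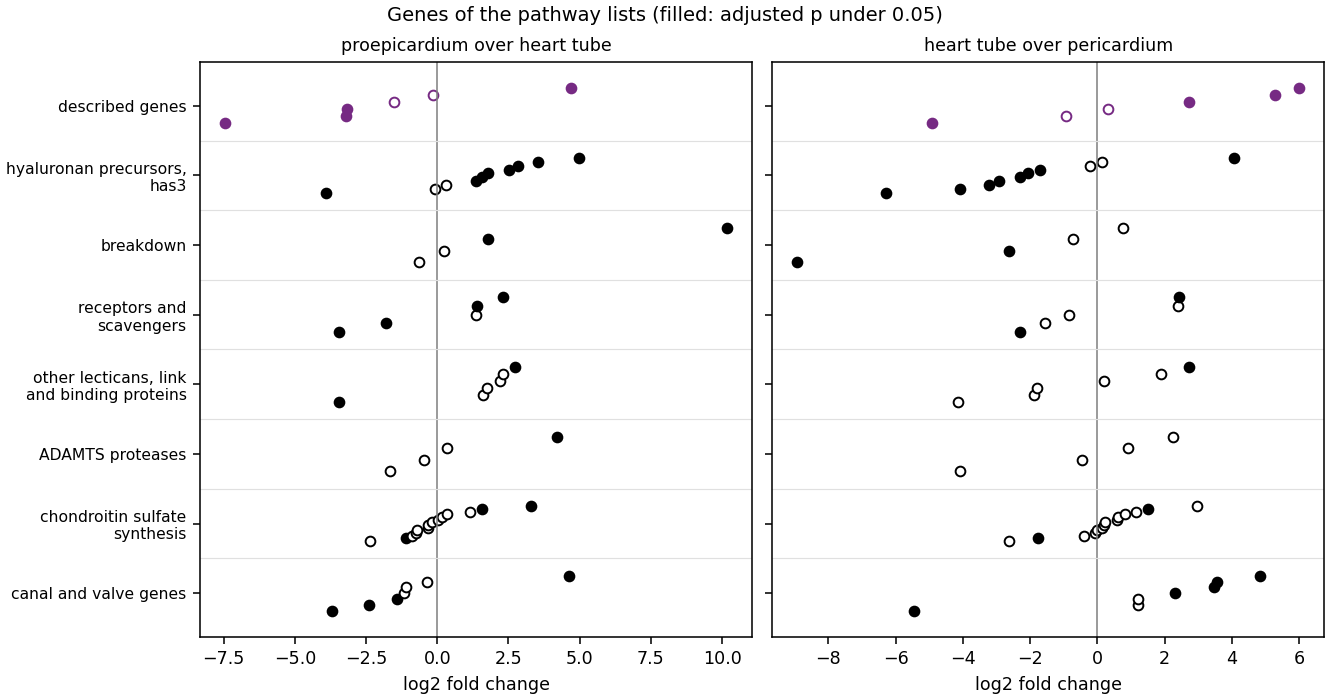
Log2 fold change of each tested identifier on the 7 pathway lists, for proepicardium over heart tube and for heart tube over pericardium, with filled points where the edgeR adjusted p was under 0.05. On the synthesis and precursor list 7 of 10 identifiers lie above 0 and are filled in the proepicardium panel, and 7 of 10 lie below 0 and are filled in the pericardium panel; fitted values of genes with no or few heart tube counts (such as HYAL4) depend on the prior count.

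Of the genes listed under hyaluronan breakdown, HYAL4 and CEMIP were lower in heart tube than in both other tissues. Of 4 identifiers tested, 2 were higher in proepicardium than in heart tube and 2 were lower in heart tube than in pericardium. The shares over all tested genes were 16.8% and 16.1%. HYAL4 was listed for its place in the hyaluronidase family, and whether its product cleaves hyaluronan was not tested. It had 4.29, 13.4, 20.4 and 1.44 CPM in proepicardium, no read in any heart tube library, and 5.52 and 2.69 CPM in pericardium. Against 3 counts per heart tube library, the proepicardium mean was at least 47.9-fold higher (edgeR adjusted p = 0.0016) and the pericardium mean at least 19.9-fold higher (edgeR adjusted p = 0.00441). The bounds were 30.9-fold without proepicardium 3 and 13.1-fold without pericardium 1. CEMIP, a hyaluronan-binding protein required for hyaluronan depolymerisation, averaged 25.6 ± 17.4 CPM in proepicardium, 7.36 ± 3.44 CPM in heart tube and 45.3 ± 4.81 CPM in pericardium (SD, n = 4, 3 and 2). Its log2 fold changes were 1.8 for proepicardium over heart tube (edgeR adjusted p = 0.0289) and -2.62 for heart tube over pericardium (edgeR adjusted p = 0.00923). The CEMIP call against proepicardium was lost without proepicardium 1, proepicardium 2 or heart tube 2, and that against pericardium without pericardium 1. CEMIP2, a transmembrane hyaluronidase named after its values were seen, was not called in proepicardium over heart tube (-0.63, edgeR adjusted p = 0.153). Without proepicardium 3 and 4, a setting added after seeing the data, CEMIP2 was called lower in proepicardium (-1.09, edgeR adjusted p = 0.0322). In that setting ADAMTS9, CHST15 and twist1b of the lists below also gained a call as lower in proepicardium.

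Receptors and scavengers other than cd44a split between the tissues. Of 5 tested, 2 were higher and 2 lower in proepicardium than in heart tube, and 1 was higher and 1 lower in heart tube than in pericardium. The shares over all tested genes were 16.8% and 12.7% in the first comparison and 11% and 16.1% in the second. The endothelial hyaluronan receptor gene lyve1a was at 3.27, 14.4, 10.4 and 1.44 CPM in proepicardium, 35.1, 110 and 96.2 CPM in heart tube, and 15.2 and 15.5 CPM in pericardium. It was lower in proepicardium than in heart tube in every library, at -3.44 (edgeR adjusted p = 0.00405), and at -4.03 without proepicardium 2. The scavenger receptor genes stab1 and stab2 differed in direction. For stab1 the means were 3.76 ± 1.39 CPM in proepicardium and 13.3 ± 5.45 CPM in heart tube (SD, n = 4 and 3), at -1.82 (edgeR adjusted p = 0.00871). For stab2 they were 7.51 ± 1.76 CPM in proepicardium and 1.49 ± 0.703 CPM in heart tube (SD, n = 4 and 3), at 2.32 (edgeR adjusted p = 0.00312). Heart tube over pericardium was 2.42 for stab1 (edgeR adjusted p = 0.00888), a call lost without either pericardium library, and -2.31 for stab2 (edgeR adjusted p = 0.00609), lost without pericardium 1. The hyaluronan-binding motility receptor gene hmmr, also a gene of dividing cells, was higher in proepicardium than in heart tube (1.38, edgeR adjusted p = 0.0161), a call lost without heart tube 2, heart tube 3 or proepicardium 3 and 4.

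Among other hyaluronan-binding partners, 6 were tested, of which 1 was higher and 1 lower in proepicardium than in heart tube, and 1 was higher in heart tube than in pericardium. These counts were near the shares over all tested genes, 16.8% and 12.7% in the first comparison and 11% higher in the second, and describe single genes only. TNFAIP6, a secreted protein that transfers inter-alpha-inhibitor heavy chains onto hyaluronan in mammals, was at 3.72, 7.05, 2.46 and 6.19 CPM in proepicardium, 51.5, 48.3 and 59.2 CPM in heart tube, and 5.97 and 10.3 CPM in pericardium. Heart tube libraries lay close together and far above all others, with log2 fold changes of -3.46 for proepicardium over heart tube (edgeR adjusted p = 9.60e-05) and 2.71 for heart tube over pericardium (edgeR adjusted p = 0.00219). Both calls held in all 20 alternative settings. ITIH2, which encodes such a heavy chain, averaged 2.70 ± 1.40 CPM in proepicardium and 0.400 ± 0.208 CPM in heart tube (SD, n = 4 and 3), at 2.72 (edgeR adjusted p = 0.0222). That call was lost in 6 settings, among them without proepicardium 1, proepicardium 3, heart tube 2 or heart tube 3. It stood at 3.44, 1.41, 4.30 and 1.66 CPM in proepicardium libraries 1 to 4, where the 7 liver markers took 0.0477%, 0.0338%, 0.0723% and 0.0218% of gene counts, against 0.00752% to 0.0177% in heart tube. Of those markers 3 of 4 tested were called higher in proepicardium, fabp10a had 0 reads in every proepicardium and heart tube library, and the part of liver RNA in the ITIH2 result was not tested.

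Calls among the proteases and chondroitin sulfate enzymes were near the shares over all tested genes, 16.8% higher and 12.7% lower in proepicardium than in heart tube. Of 4 tested identifiers of versican-cleaving ADAMTS proteases, 1 was higher in proepicardium than in heart tube, ENSDARG00000033544 (listed as ADAMTS15), at least 6.63-fold (edgeR adjusted p = 0.0447). That fold is against a fixed floor of 3 counts, where the highest heart tube count was 2. ADAMTS15 was called in 8 of 18 settings, was lost without proepicardium 2 or 4 or any single heart tube or pericardium library, and without proepicardium 2 had a bound of 2.79-fold. Of 14 tested identifiers of chondroitin sulfate chain synthesis, 2 were higher and 1 was lower in proepicardium than in heart tube. They were FAM20B, a xylose kinase of the linker (1.58, edgeR adjusted p = 0.0256), CHST11, a sulfotransferase (3.31, edgeR adjusted p = 0.0290), and the chain polymerase CHSY1 (-1.1, edgeR adjusted p = 0.0393). In heart tube over pericardium, 11% of all tested genes were called higher and 16.1% lower. Of the 14 identifiers 1 was higher there, CHSY1 (1.5, edgeR adjusted p = 0.0307), and 1 was lower, FAM20B (-1.78, edgeR adjusted p = 0.0278). Each of these 5 calls was lost in at least 4 settings. Against proepicardium, FAM20B was lost without any single heart tube library, proepicardium 2 or 4, CHST11 without proepicardium 2, 3 or 4, heart tube 2 or pericardium 1, and CHSY1 without proepicardium 1, 2 or 4, any heart tube library or pericardium 2. Against pericardium, FAM20B was lost without any single heart tube or pericardium library, and CHSY1 without heart tube 2 or either pericardium library.

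Genes of the atrioventricular canal and valves differed in both directions. Of 7 identifiers tested, 3 were lower and 1 was higher in proepicardium than in heart tube, against 12.7% and 16.8% of all tested genes. In heart tube over pericardium 4 were higher and 1 was lower, against 11% and 16.1%. The 4 became 1 without pericardium 2. BMP4, the myocardial signal of the canal, was at 21.9, 15.4, 73.6 and 43.0 CPM in proepicardium, 363, 513 and 631 CPM in heart tube, and 19.7 and 15.8 CPM in pericardium. It gave -3.71 for proepicardium over heart tube (edgeR adjusted p = 0.000289) and 4.82 for heart tube over pericardium (edgeR adjusted p = 0.000589), called in all 20 settings. Without proepicardium 3 and 4 the first was -4.74. NFATC1, an endocardial transcription factor that is also on the endothelial marker list, averaged 2.96 ± 2.69 CPM in proepicardium and 15.8 ± 0.822 CPM in heart tube (SD, n = 4 and 3), at -2.41 (edgeR adjusted p = 0.0140), and at -3.32 without proepicardium 3. The T-box genes of the list were not alike: ENSDARG00000006120 (listed as TBX2) gave -1.41 for proepicardium over heart tube (edgeR adjusted p = 0.0160), lost without heart tube 3. ENSDARG00000002216 (listed as TBX3) averaged 34.3 ± 17.6 CPM in proepicardium and 1.34 ± 1.47 CPM in heart tube (SD, n = 4 and 3), at 4.63 (edgeR adjusted p = 0.00214), and at 6.06 without heart tube 1 and 4.04 without heart tube 2. In heart tube over pericardium the same identifiers gave 2.31 for TBX2 (edgeR adjusted p = 0.00561), 3.46 for NFATC1 (edgeR adjusted p = 0.0120) and -5.46 for TBX3 (edgeR adjusted p = 0.00156). Another identifier listed as TBX2, ENSDARG00000018025, named after its values were seen, was not called there (1.21, edgeR adjusted p = 0.0626). The TBX3 value was -6.86 without heart tube 1 and -4.84 without heart tube 2. The mesenchymal factor gene twist1b was higher in heart tube than in pericardium (3.56, edgeR adjusted p = 0.0115). The calls of TBX2, NFATC1 and twist1b against pericardium were lost without pericardium 2, and without pericardium 1 NFATC1 was 5.07 and twist1b was 4.78.

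The marker lists moved between the tissues as follows in the same fit. Over all tested genes, 16.8% were called higher and 12.7% lower in proepicardium than in heart tube. In heart tube over pericardium those shares were 11% and 16.1%. A list with 1 call in a direction describes a single gene only. Of 8 myocardial identifiers, 7 were lower in proepicardium than in heart tube and 8 were higher in heart tube than in pericardium, and of 6 endothelial identifiers 6 and 6 were. Of 6 tested epicardial identifiers, 2 were higher and 1 was lower in proepicardium than in heart tube, and 2 were higher and 1 was lower in heart tube than in pericardium. Of 11 epidermal identifiers, 9 were higher in proepicardium than in heart tube and 10 were lower in heart tube than in pericardium. Cartilage markers (3 tested) gave 1 higher in proepicardium and 1 lower in heart tube than in pericardium, and liver markers (4 tested) gave 3 higher in proepicardium and 1 higher in heart tube than in pericardium. Macrophage markers (4 tested) gave 0 calls between proepicardium and heart tube and 2 higher in heart tube than in pericardium. Erythroid markers (4 tested) gave 0 and 3, and neural markers (5 tested) gave 1 higher in proepicardium and 2 higher in heart tube than in pericardium. None of these lists had a called gene between proepicardium and pericardium, where edgeR called 0% of all tested genes.

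Within the set, the profiles of has2 and hapln1a over the 9 libraries were the most alike of all pairs, with a root mean square difference of 1.12 between their gene-centred log2 CPM values. Those of vcana and cd44a were the least alike, at 4.86. The measure is not scaled to a gene's own spread, which was 2.29 for has2 and 1.34 for hapln1a. By the same measure over all tested genes with a symbol, the 3 genes nearest to each member were listed. For has2 they were RNF208 (0.565), APLN (0.580), which encodes the apelin peptide, and sh3bgr (0.588). For vcana they were ecscr (0.872), an endothelial surface protein gene, ZPLD1 (0.905) and AQP8 (0.950), an aquaporin. The genes nearest to hapln1a were ppfibp2a (0.286), fgfr4 (0.292), an FGF receptor, and NID1 (0.301), the basement membrane protein nidogen. For vcanb, whose own spread was only 0.824, they were EIF2AK4 (0.376), AAK1 (0.380) and slmapb (0.402). For hapln3 they were si:dkey-19b23.7 (0.860), dnajb6b (0.869) and MPI (0.897), and for cd44a ftr02 (0.508), PENK (0.534) and MXRA5 (0.554). These values describe likeness over 9 libraries that share 3 tissues, and carry no test.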

How the data were processed

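Bulk RNA-seq of 9 libraries (4 proepicardium, 3 heart tube, 2 pericardium) was analysed from the deposited table of raw counts per gene. The submitters' processing notes name CASAVA 1.8, fastp, STAR, featureCounts and DESeq2 with the builds GRCz11 and danRer11, without parameters. Whether counting used strand is not given in the sources used here, so reads of overlapping antisense genes cannot be told apart. A second deposited table holds log2 values, which matched DESeq2's blind regularised log2 transform of the counts and served as an alternative. In total 16 rows of reporter constructs (at most 0.0309% of counts) were set aside. Symbols came from the files and from RefSeq synonyms.

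Genes were filtered with filterByExpr (minimum count 10, minimum total 15), scaled by TMM and tested with edgeR 4.0.16 (glmQLFit, robust, tissue as the only term, all 9 libraries) in R 4.3.3, with Benjamini-Hochberg adjustment over 17003 genes. The scripts were tested on simulated data. Alternatives were other scalings and filters, DESeq2 1.42.0, limma 3.58.1 with voom or on the deposited log2 values, a replicate block, only the compared tissues, and each library left out. The gene set and all lists were chosen with earlier results of these data known. Named were all members, at most 4 called genes of smallest p per list, comparison and direction, and the 3 genes nearest to each member in profile. Libraries of a tissue differed by more than counting noise in every pair, so no library was counted as a repeat sequencing of another. That check does not tell separate pools from a second amplification of the same lysate.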

Additional observations from a re-analysis of the deposited data

How the results depend on the processing

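The vcana calls and the has2 call between proepicardium and heart tube held in every alternative run. Other results moved as follows. Genes called between proepicardium and pericardium numbered 0 in the main analysis, 9 with no filter, 102 with DESeq2 (99 higher in proepicardium), 6 with limma-voom and 3 with limma on the deposited log2 values. With a mean count of at least 50 required, 2 members were called between proepicardium and heart tube, since only 4 members were then tested. Leaving out each library in turn gave 1 to 4 called members and 2231 to 4750 called genes between heart tube and pericardium. With 1 pericardium library, that library is assumed to vary like the others.

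The sign of vcanb in proepicardium over heart tube was not stable: it was 0.25 with limma-voom, 0.032 with the deposited log2 values, 0.000667 with a replicate block, 0.14 without proepicardium 3 and 4, and -0.57 to 0.52 over single libraries left out. For proepicardium over pericardium, cd44a ranged from -1.1 to 0.24 over single libraries left out, and hapln1a was -0.0153 without proepicardium 3 and 4. For heart tube over pericardium, hapln3 ranged from -0.24 to 0.78. The cause was not tested. The setting without proepicardium 3 and 4 was added after seeing the data.

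Whether the replicate numbers pair the samples is not known. Same-numbered proepicardium and heart tube libraries deviated together with correlations of 0.0373, 0.0246 and 0.0598, and unlike numbers with -0.0945 to 0.0477. Same-numbered proepicardium and pericardium libraries gave 0.0830 and 0.129, and unlike numbers -0.161 to 0.161. Same-numbered heart tube and pericardium libraries gave -0.0179 and 0.0249. With so few libraries per tissue these values cannot decide whether pools shared a clutch or day. With the replicate block, 4103 genes and 4 members were called between proepicardium and heart tube, 3658 and 4 between heart tube and pericardium, and 0 between proepicardium and pericardium. In that fit hapln1a gained a call in proepicardium over heart tube (adjusted p = 0.0253), and cd44a lost its own (adjusted p = 0.0692), both from edgeR. Depth limits has1 and cd44a, which rest on few reads.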
